A study of Homo sapiens with 8 samples.

Results

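The genes described here encode the proteins of the mitochondrial ribosome. They were the protein-coding genes whose symbol is MRPL or MRPS followed by a number and an optional letter A, B or C, together with DAP3 and PTCD3, which are small-subunit proteins with other names. By this rule 80 of the 38010 gene IDs in the count table were members, 49 in the large subunit and 31 in the small subunit. RNA-seq had been run on confluent cultures of 2 lines, the OXPHOS-deficient Rho0 derivative of Ea.hy926 and the parental line, called Eahy in the labels, with 4 biological replicates of each. The name Rho0 stands for cells without mitochondrial DNA, and Ea.hy926 is a hybrid of umbilical vein endothelium and the lung carcinoma line A549. Each condition was therefore a single cultured line, and p-values measure only the spread between the cultures of these lines. How the Rho0 line was made, and whether it is clonal, is not stated in the labels.

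The mitochondrial ribosome translates the few messenger RNAs of mitochondrial DNA, all of which encode subunits of the oxidative phosphorylation complexes. Its ribosomal RNAs are made from mitochondrial DNA, whereas all of its proteins are encoded in the nucleus, made in the cytosol and imported. Many of these proteins have counterparts in bacterial ribosomes, and the others are additions specific to mitochondria. The large subunit forms peptide bonds and holds the exit tunnel, and the small subunit binds the messenger RNA and decodes it. A Rho0 cell thus lacks both the ribosomal RNAs and the messages that this ribosome serves.

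Libraries held 11721708 to 37203507 estimated counts in Rho0 and 23366190 to 28599386 in the parental line. Transcripts of mitochondrial DNA made up 0.00296% to 0.149% of the Rho0 libraries and 16.05% to 21.4% of the parental libraries, so the labels held in every library. Because so large a share of the parental libraries was absent from Rho0, the way libraries are scaled against each other moves every gene together. The main values here are CPM, counts scaled to a common library size, over library sizes scaled by TMM. That method assumes that most genes do not change. The endothelial markers PECAM1, CDH5 and VWF were present in both lines, at 2116 ± 67.2, 1033 ± 32.7 and 228 ± 19.3 CPM in Rho0 and at 1085 ± 41.4, 1716 ± 92.4 and 165 ± 4.22 CPM in the parental line (SD, n = 4 each). Among the other endothelial markers, KDR had 130 ± 13.5 CPM in Rho0 and 13.8 ± 0.793 CPM in the parental line, and EMCN had 0.398 ± 0.0475 CPM in Rho0 and 7.77 ± 0.627 CPM in the parental line. CLDN5 stayed under 1 CPM in every library and was not tested. Of the 11 tested, 4 were higher and 4 lower in Rho0, so the lines differed in this list. The 12 endothelial markers summed to 5334 to 5769 CPM in Rho0 and 5333 to 5808 CPM in the parental line. Of the 6 epithelial markers, KRT8, KRT18 and KRT7 were abundant and EPCAM and CDH1 stayed under 1 CPM on average in both lines. The epithelial sum was 1294 to 2077 CPM in Rho0 and 2605 to 2877 CPM in the parental line. The 5 fibroblast markers summed to 1.28 to 1.98 CPM in Rho0 and 1.65 to 2.42 CPM in the parental line. The 4 leukocyte markers summed to 1.49 to 1.94 CPM in Rho0 and 2.07 to 2.93 CPM in the parental line, with CD3E at 0 in all libraries. In RNA from whole cultures, fewer cells that express a gene and less of its RNA per cell cannot be told apart.

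With TMM scaling, mitochondrial ribosomal genes were more often lower than higher in Rho0, to a similar extent in both subunits, whereas with library size alone they were more often higher than lower, as were genes in general. All 80 members passed the filter on low counts, the lowest count of any member in any library being 52. At an adjusted p of 0.05 over all 15184 genes tested, 34 members were lower in Rho0, 10 were higher and 36 did not pass (edgeR quasi-likelihood test with Benjamini-Hochberg adjustment). Over all genes tested, 54.4% passed, 25.4% lower and 29% higher, so the members passed about as often as genes in general and fell more often. In the large subunit 22 of 49 genes fell and 6 rose, and in the small subunit 12 of 31 fell and 4 rose. The median log2 fold change was -0.18 in the large subunit and -0.17 in the small subunit, against 0.05 over all genes tested. Of the 80 members, 59 lay below that median of all genes, 38 of the 49 large-subunit and 21 of the 31 small-subunit genes. In 39 members, 23 large and 16 small, the 4 Rho0 and the 4 parental CPM values did not overlap, beside 50.9% of all genes.

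**Figure D1:**
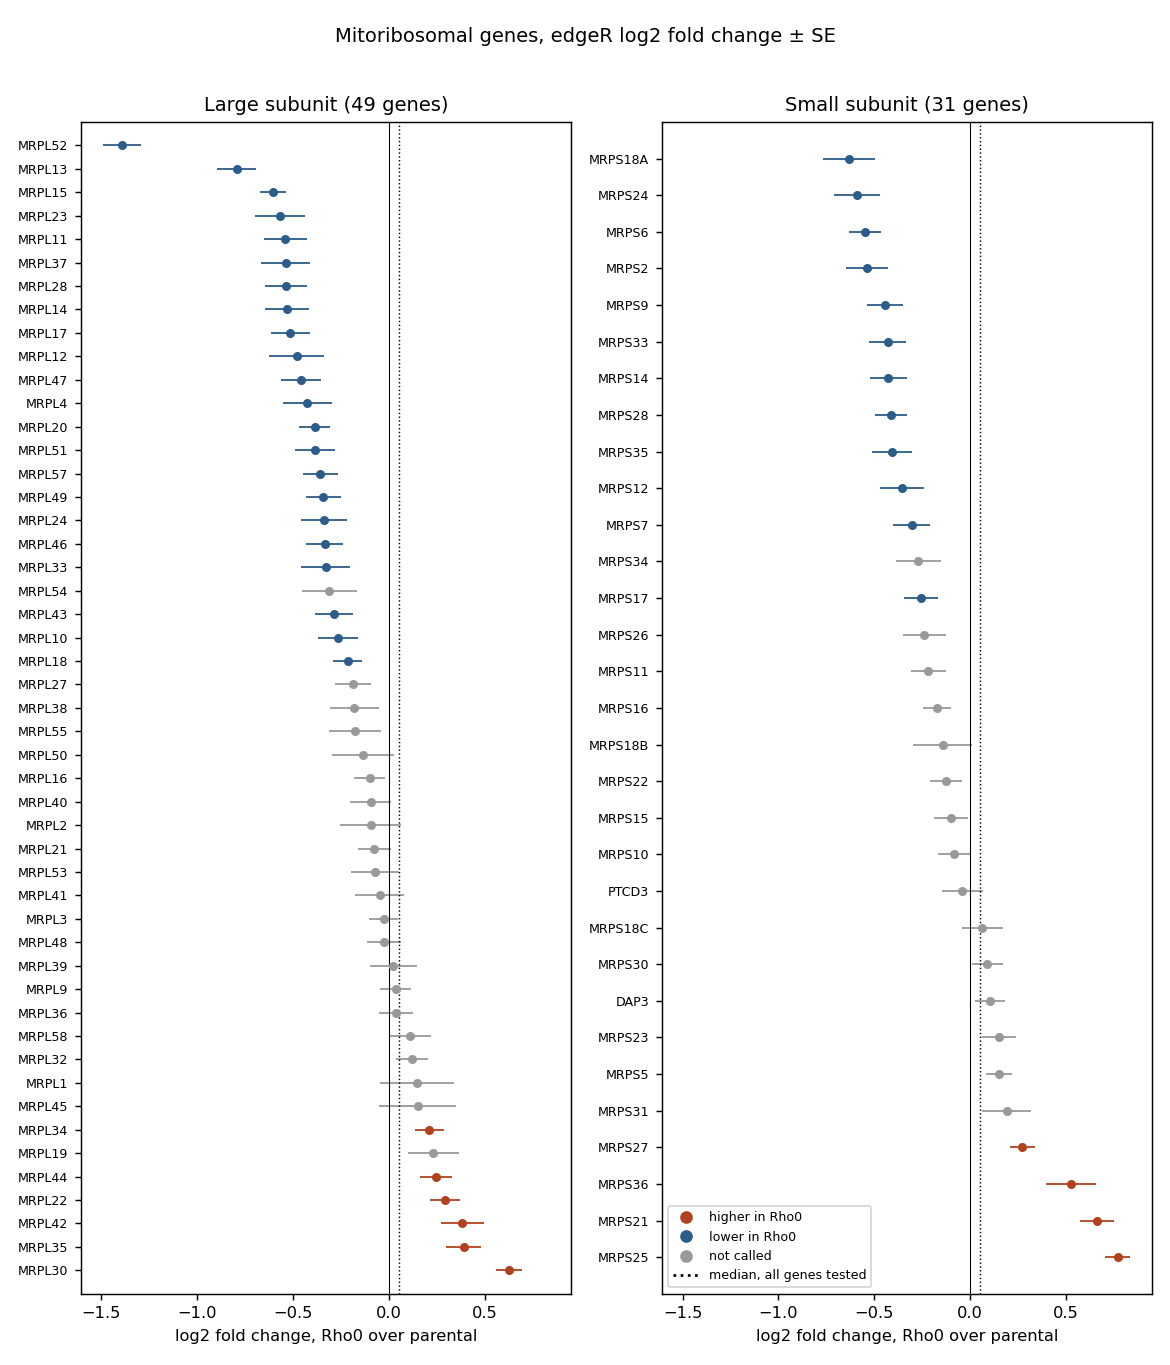
Log2 fold change of each mitochondrial ribosomal gene, Rho0 over parental, with its standard error (edgeR, TMM-scaled, 4 libraries per line), for the 49 large-subunit and the 31 small-subunit genes in order of fold change. Most genes of each subunit sit left of the dotted median of all genes tested (0.05), MRPL52 stands farthest to the left at -1.39 and MRPS25 farthest to the right at 0.77. With library size alone as the scaling, all points move to the right and the medians of the subunits become 0.21 and 0.22.

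Most of these differences were small. Called changes of at least 1.5-fold were found in 5 members that were lower, 3 large and 2 small, and in 3 that were higher, 1 large and 2 small. Among all genes tested such calls made up 12.3% for lower and 17.3% for higher genes. The middle of the distribution was alike in the 2 subunits, the quartiles of the log2 fold change being -0.39 and 0.04 in the large subunit and -0.41 and 0.10 in the small subunit. Symbols do not always match the structure of the ribosome. The proteins of MRPS30 and MRPS18A lie in the large subunit, and the protein of MRPS36 is now assigned to the oxoglutarate dehydrogenase complex. Counted by structure, 23 of 51 large-subunit genes were lower and 6 higher, and 11 of 28 small-subunit genes were lower and 3 higher.

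Summed over genes, large-subunit transcripts reached 1589, 1415, 1373 and 1263 CPM in the 4 Rho0 libraries and 1704, 1789, 1803 and 1776 CPM in the 4 parental libraries. Small-subunit transcripts summed to 1026, 940, 961 and 901 CPM in Rho0 and to 1030, 1083, 1076 and 1072 CPM in the parental line. All Rho0 sums lay below all parental sums, narrowly so for the small subunit in replicate 1 of each line. The ratio of the large-subunit to the small-subunit sum, which no scaling of a library can change, was 1.55, 1.505, 1.43 and 1.40 in Rho0 and 1.65, 1.65, 1.68 and 1.66 in the parental line. The ratio was thus lower in each Rho0 library than in each parental library, and the Rho0 libraries spread more, with means of 1.47 ± 0.0672 and 1.66 ± 0.0111 (SD, n = 4 each). It was not corrected for the GC content of transcripts, whose median was 51.5% in large-subunit and 47.3% in small-subunit genes. Within Rho0 the ratio fell from replicate 1 to replicate 4. The correlations with GC content described below fell in the same order (Spearman rho of 0.64, 0.42, -0.16 and -0.68). What GC content adds to the ratio was not tested. The log2 ratio was lower in Rho0, with a difference of -0.18 between the means. A single gene, MRPL52, carried part of it: the log2 difference was -0.12 without that gene, an alternative chosen after its values were seen. Without MRPL15 and MRPS2, the most abundant gene of each subunit, it was -0.19, and with subunits assigned by structure -0.18.

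**Figure D2:**
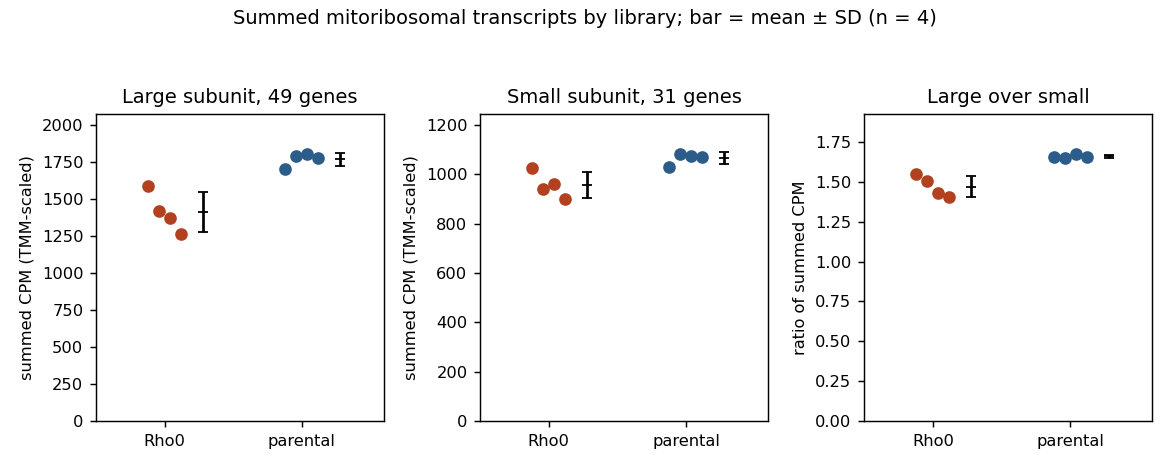
Summed TMM-scaled CPM of the 49 large-subunit genes and of the 31 small-subunit genes, and the ratio of the sums, 1 point per library, with mean ± SD (n = 4) beside the points. The ratio lies between 1.40 and 1.55 in Rho0 and between 1.65 and 1.68 in the parental line and does not depend on library scaling, whereas the sums do. The ratio was not corrected for the GC content of transcripts.

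The direction of the change depended on the scaling. All values here are relative to the other RNA of a library and are not amounts per cell. As a share of all counts, mitochondrial ribosomal transcripts made up 0.290%, 0.267%, 0.268% and 0.258% of the Rho0 libraries and 0.244%, 0.253%, 0.231% and 0.262% of the parental libraries, where the ranges overlapped and Rho0 was mostly the higher. With transcripts of mitochondrial DNA left out of the totals, the same genes made up 0.290%, 0.267%, 0.268% and 0.258% of the Rho0 libraries and 0.300%, 0.308%, 0.293% and 0.312% of the parental libraries, and every Rho0 value was below every parental one. With library size alone as the scaling, the all-gene median moved to 0.44 on the log2 scale, and 33 of the 80 members were called higher and 3 lower, beside 56.5% higher and 10.1% lower over all genes tested. The 3 that still fell were MRPL52, MRPL13 and MRPL15, and all 10 members that had risen under TMM still did. A scaling moves all genes together, so the place of the members relative to all genes is fixed by construction and is no further support. The difference between the subunit median and the median of all genes was -0.23 (large) and -0.22 (small) on the log2 scale with TMM, and -0.23 and -0.23 with library size alone.

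**Figure D3:**
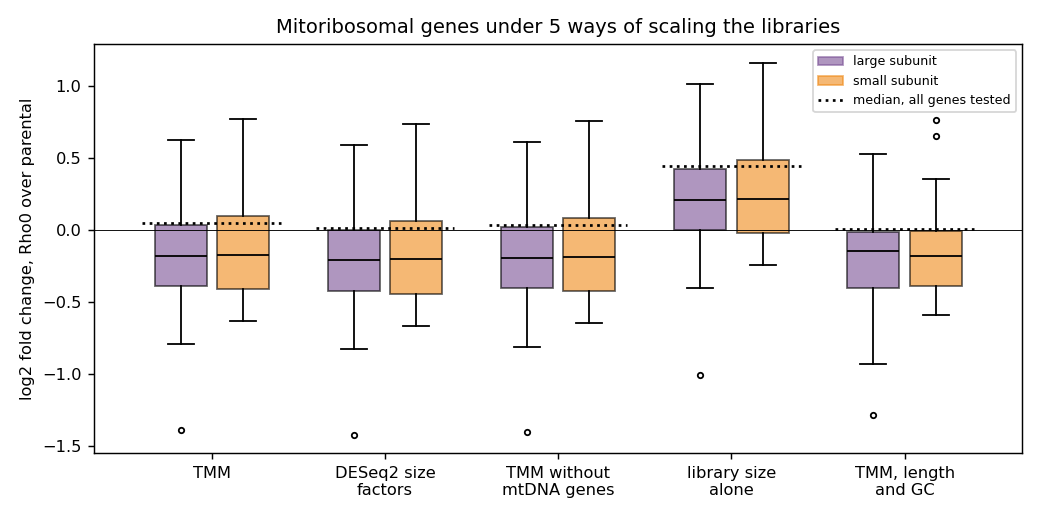
Log2 fold changes of the large-subunit and small-subunit genes, Rho0 over parental, under 5 ways of scaling or correcting the libraries. Boxes show the quartiles and median, whiskers reach the farthest gene within 1.5 box lengths, circles are genes beyond them, and the dotted line is the median of all genes tested. The subunit medians are negative except with library size alone, where they are 0.21 and 0.22. Their distance from the dotted line hardly changes between the scalings, by construction. The length and GC correction moves genes separately. With it the distance is -0.15 (large) and -0.19 (small), against -0.23 and -0.22 with TMM.

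In the large subunit, MRPL52, a protein specific to mitochondria, fell most. Its level was 55.3, 44.6, 43.3 and 39.2 CPM in Rho0 and 119, 123, 117 and 120 CPM in the parental line. The groups were far apart, and the log2 fold change was -1.39 (SE 0.10, edgeR adjusted p = 1.03e-06), the only fall of a member beyond 2-fold under TMM. It was -1.01 with library size alone. MRPL13 and MRPL15, counterparts of the bacterial proteins L13 and L15, followed. MRPL13 had 5.61, 4.89, 5.91 and 5.68 CPM in Rho0 and 8.94, 9.30, 9.63 and 10.7 CPM in the parental line, a log2 fold change of -0.79 (SE 0.10, edgeR adjusted p = 8.04e-05). MRPL15 had 94.1, 84.8, 83.7 and 85.8 CPM in Rho0 and 125, 136, 130 and 139 CPM in the parental line, a log2 fold change of -0.61 (SE 0.07, edgeR adjusted p = 2.95e-05). In both genes all Rho0 libraries lay below all parental libraries. MRPL15 was also the most abundant large-subunit transcript by CPM.

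The next falls in the large subunit were in MRPL23, MRPL11 and MRPL37. MRPL23, a protein at the rim of the exit tunnel, had a mean of 32.0 ± 7.08 CPM in Rho0 and 47.5 ± 0.523 CPM in the parental line (SD, n = 4 each), a log2 fold change of -0.57. MRPL11, which lies at the base of the stalk that recruits translation factors, had 53.8 ± 9.49 CPM in Rho0 and 78.4 ± 2.48 CPM in the parental line, a log2 fold change of -0.54. MRPL37, specific to mitochondria, had 70.7 ± 13.0 CPM in Rho0 and 102 ± 8.89 CPM in the parental line, also a log2 fold change of -0.54. None of these 3 overlapped between the lines, and with library size alone none of them passed the test. Within Rho0, replicate 4 had the lowest MRPL37 level, at 52.3 CPM, and the other Rho0 libraries lay at 70.7 to 80.7 CPM.

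The largest rises of large-subunit genes were in MRPL30, MRPL35, MRPL42 and MRPL22. MRPL30, the counterpart of bacterial L30, had 30.3, 29.6, 31.6 and 29.8 CPM in Rho0 and 19.7, 19.7, 18.6 and 20.4 CPM in the parental line. Its log2 fold change was 0.63 (SE 0.07, edgeR adjusted p = 2.42e-05), and both groups were tight. MRPL35, the counterpart of bacterial L35, had 26.4 ± 2.76 CPM in Rho0 and 20.2 ± 1.39 CPM in the parental line (log2 fold change 0.39). MRPL42, specific to mitochondria, had 29.2 ± 4.51 CPM in Rho0 and 22.4 ± 1.80 CPM in the parental line (log2 fold change 0.38). MRPL22, a protein that lines the exit tunnel, had 20.4 ± 0.879 CPM in Rho0 and 16.6 ± 0.918 CPM in the parental line (log2 fold change 0.29). None of the 4 overlapped between the lines. MRPL42 and MRPL22 no longer passed once libraries were corrected for the GC content and length of transcripts.

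Both genes of the stalk that recruits translation factors were called lower under TMM. MRPL12, the stalk protein proper, also known to bind the mitochondrial RNA polymerase, had 45.0, 37.7, 32.3 and 26.1 CPM in Rho0 and 44.9, 53.2, 48.4 and 50.05 CPM in the parental line. Rho0 replicate 1 reached the lowest parental value, and the log2 fold change was -0.48 (SE 0.14, edgeR adjusted p = 0.0162). MRPL10, which anchors MRPL12 to the ribosome, had a log2 fold change of -0.27 (SE 0.10) with an edgeR adjusted p of 0.0496, close to the threshold, and it lost its call when Rho0 replicate 2, 3 or 4 or parental replicate 1, 2 or 3 was left out (log2 fold changes of -0.37 to -0.20 over all such fits). MRPL57, a small protein specific to mitochondria, was lower, with a log2 fold change of -0.36 (edgeR adjusted p = 0.00714). Under library size alone, the log2 fold changes of MRPL10 and MRPL57 turned positive, at 0.13 and 0.03.

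None of 4 other large-subunit genes with known roles was called lower. MRPL44, which has a ribonuclease III-like fold and is a cardiomyopathy gene, had 22.3, 18.7, 18.7 and 19.9 CPM in Rho0 and 16.8, 17.3, 16.02 and 17.1 CPM in the parental line, a log2 fold change of 0.25 (SE 0.08, edgeR adjusted p = 0.0270). It missed the threshold under 11 of its 18 alternatives, among them the DESeq2 test and the fits without Rho0 replicate 1, 2 or 3 or without any 1 of the parental replicates (log2 fold changes of 0.16 to 0.26 over the fits without 1 library). MRPL45, which binds the ribosome to the inner membrane at the tunnel exit, had 10.1 ± 1.90 CPM in Rho0 and 9.14 ± 2.55 CPM in the parental line and did not pass (log2 fold change 0.15, edgeR adjusted p = 0.548). MRPL58, a peptidyl-tRNA hydrolase that rescues stalled ribosomes, did not pass either (log2 fold change 0.11, edgeR adjusted p = 0.404). MRPL3, a protein near the catalytic centre, was almost level at 47.2 ± 3.45 CPM in Rho0 and 48.1 ± 2.58 CPM in the parental line (log2 fold change -0.03 under TMM and 0.36 with library size alone).

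In the small subunit, the falls were smaller at the top and otherwise alike. MRPS18A had 24.6, 22.9, 20.8 and 15.0 CPM in Rho0 and 30.8, 32.7, 33.8 and 31.3 CPM in the parental line (log2 fold change -0.63 with an SE of 0.13, edgeR adjusted p = 0.00240). MRPS24, the counterpart of bacterial S3 at the entry of the messenger RNA channel, had 35.1, 25.4, 26.7 and 23.2 CPM in Rho0 and 41.3, 39.5, 43.8 and 42.0 CPM in the parental line (log2 fold change -0.59 with an SE of 0.12, edgeR adjusted p = 0.00171). The lines did not overlap in either gene. MRPS6, the counterpart of bacterial S6, had 39.1 ± 3.80 CPM in Rho0 and 57.1 ± 2.78 CPM in the parental line (log2 fold change -0.55). MRPS2, the counterpart of bacterial S2 and the most abundant small-subunit transcript by CPM, had 86.7, 85.4, 75.1 and 64.2 CPM in Rho0 and 101, 116, 129 and 106 CPM in the parental line (log2 fold change -0.54). MRPS9, the counterpart of bacterial S9, and MRPS33, specific to mitochondria, had log2 fold changes of -0.44 and -0.43. The lines did not overlap in these 4 genes either, and with library size alone none of the 6 passed the test.

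The largest rise of any member was that of MRPS25, a small-subunit protein specific to mitochondria in which disease mutations are known. It had 49.4, 47.0, 47.5 and 50.5 CPM in Rho0 and 26.9, 29.2, 29.3 and 28.6 CPM in the parental line, a log2 fold change of 0.77 (SE 0.07, edgeR adjusted p = 3.80e-06). MRPS21, the counterpart of bacterial S21, had 23.3, 19.8, 20.7 and 18.9 CPM in Rho0 and 13.8, 12.6, 12.3 and 13.6 CPM in the parental line, a log2 fold change of 0.66 (SE 0.09, edgeR adjusted p = 0.000124). Both pairs of groups were widely separated. MRPS36, at low levels of 4.90 ± 0.558 CPM in Rho0 and 3.41 ± 0.369 CPM in the parental line, had a log2 fold change of 0.53. MRPS27, a pentatricopeptide repeat protein, had 69.0 ± 3.96 CPM in Rho0 and 57.1 ± 1.38 CPM in the parental line, a log2 fold change of 0.27. These 4 genes were called higher under all 18 alternatives tried for each.

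**Figure D4:**
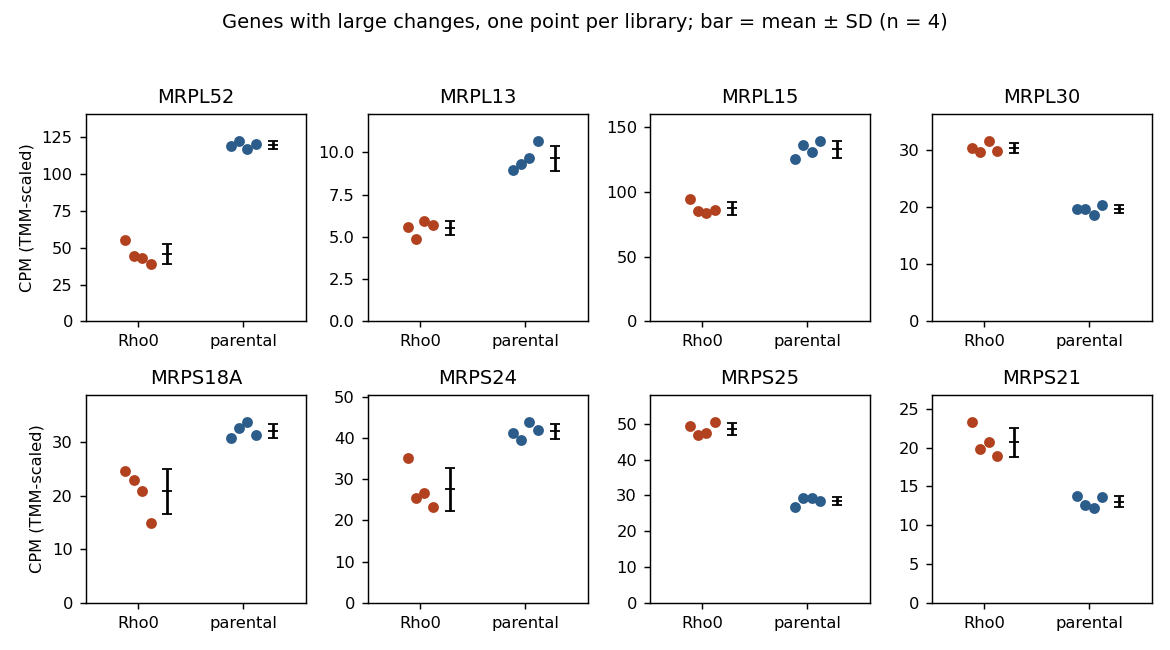
TMM-scaled CPM of 8 genes in each library, with mean ± SD (n = 4) beside the points. In the top row MRPL52, MRPL13 and MRPL15 are lower and MRPL30 is higher in Rho0, in the bottom row MRPS18A and MRPS24 are lower and MRPS25 and MRPS21 are higher, and the lines do not overlap in any of the 8. With library size alone MRPS18A and MRPS24 do not pass the test.

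Among small-subunit genes with known roles, MRPS12, the counterpart of bacterial S12 at the decoding centre, had 23.1 ± 4.06 CPM in Rho0 and 29.5 ± 0.724 CPM in the parental line (log2 fold change -0.36, SE 0.11, edgeR adjusted p = 0.0224). Its value in Rho0 replicate 1, 28.8 CPM, overlapped the parental range of 28.7 to 30.2 CPM. MRPS34, specific to mitochondria and mutated in Leigh syndrome, had 69.8, 57.6, 66.8 and 46.1 CPM in Rho0 and 72.1, 70.5, 76.3 and 70.5 CPM in the parental line. The lines did not overlap in MRPS34, but the spread in Rho0 was wide and the gene did not pass (log2 fold change -0.27, SE 0.12, edgeR adjusted p = 0.0750). DAP3, a GTP-binding protein, and PTCD3, a pentatricopeptide repeat protein near the messenger RNA entry, did not pass either. DAP3 had 67.1 ± 6.49 CPM in Rho0 and 62.4 ± 2.27 CPM in the parental line, and PTCD3 had 45.7 ± 6.57 CPM in Rho0 and 47.0 ± 3.95 CPM in the parental line. MRPS22, specific to mitochondria, did not pass at 22.9 ± 1.48 CPM in Rho0 and 24.9 ± 2.08 CPM in the parental line, and MRPS30 did not pass at 26.3 ± 2.02 CPM in Rho0 and 24.7 ± 1.25 CPM in the parental line.

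The 3 paralogs of bacterial S18 did not move alike under the same test. MRPS18A, whose protein sits in the large subunit, passed as lower (above). MRPS18B had 4.01 ± 0.581 CPM in Rho0 and 4.42 ± 0.705 CPM in the parental line (log2 fold change -0.14, edgeR adjusted p = 0.463). MRPS18C, which occupies the place of bacterial S18, had 9.43 ± 1.09 CPM in Rho0 and 9.07 ± 0.693 CPM in the parental line (log2 fold change 0.07, edgeR adjusted p = 0.637). Differences between the paralogs were not tested. MRPS18B lies in the major histocompatibility region, where alternative assemblies hold copies that could share its reads, so its level is uncertain.

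Estimated counts that are not whole come from reads shared between genes. Of the 80 members, 22 had counts that were whole within 1e-06 in all 8 libraries, 18 in some and 40 in none. MRPL13, MRPL15, MRPL11, MRPS2 and MRPS9 were whole in all 8 libraries. MRPL52, MRPL30, MRPS18A, MRPS24, MRPS25 and MRPS21 were whole in none, so part of their reads also matched other genes, and what that adds to their changes was not tested.

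Levels were compared between genes as CPM per kilobase of the median coding transcript. On that scale large-subunit genes had a median level of 22.4 in Rho0 and 22.4 in the parental line, and small-subunit genes 18.7 in Rho0 and 22.4 in the parental line. The large-subunit median fell on different genes, MRPL36 in Rho0 and MRPL33 in the parental line. These medians are therefore no measure of change. The median log2 fold change per gene was -0.18 in the large and -0.17 in the small subunit. The highest large-subunit level was that of MRPL49 in Rho0, at 106 CPM per kilobase, and that of MRPL52 in the parental line, at 162 CPM per kilobase. MRPL52 itself had 61.6 CPM per kilobase in Rho0, below MRPL49, MRPL51, MRPL15 and MRPL28. The lowest large-subunit levels were those of MRPL50 in Rho0 (2.67 CPM per kilobase) and MRPL1 in the parental line (2.60 CPM per kilobase). In the small subunit the highest levels were those of MRPS34 in Rho0 (58.2 CPM per kilobase) and MRPS2 in the parental line (71.6 CPM per kilobase), and the lowest those of MRPS18B in Rho0 (2.62 CPM per kilobase) and MRPS36 in the parental line (2.84 CPM per kilobase). Levels within each subunit thus spread over more than an order of magnitude in both lines.

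Genes with a bacterial counterpart and genes specific to mitochondria were counted separately. Of the paralogs of bacterial S18, MRPS18C was counted with a counterpart, and MRPS18A (lower) and MRPS18B as specific to mitochondria. Of the 46 with a counterpart, 24 were lower and 5 higher, with a median log2 fold change of -0.24. Of the 33 specific to mitochondria, 10 were lower and 4 higher, with a median of -0.12. Both medians turned positive with library size alone, at 0.16 and 0.26. In the large subunit, assigned by structure, 15 of 30 genes with a counterpart and 8 of 21 specific to mitochondria were lower, and 4 and 2 were higher. In the small subunit 9 of 16 genes with a counterpart and 2 of 12 specific to mitochondria were lower, and 1 and 2 were higher. These are counts without a test of the difference, to be read beside the 25.4% lower and 29% higher over all genes.

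The Rho0 libraries differed among themselves more than the parental libraries did, with large-subunit sums of 1410 ± 135 CPM in Rho0 and 1768 ± 44.2 CPM in the parental line (SD, n = 4 each). Rho0 replicate 1 held the highest of the 4 Rho0 values for 51 of the 80 members and Rho0 replicate 4 the lowest for 47. Over all genes tested, Rho0 replicate 1 was highest for 33.4% and Rho0 replicate 4 lowest for 36.3%. Across 14230 genes, deviation from the Rho0 mean went with the GC content of the transcript, with a Spearman rho of 0.64 and 0.42 in Rho0 replicates 1 and 2 and of -0.16 and -0.68 in Rho0 replicates 3 and 4. Across the 80 members the log2 fold change between the lines went with GC content with a Spearman rho of -0.40, and across 13373 protein-coding genes with one of -0.21. These describe genes of the same 8 libraries, which are not independent replicates. With each library corrected for length and GC content, all 34 members called lower were still called lower, 7 of the 10 called higher were still called higher, and the medians of the large and small subunit minus the all-gene median were -0.15 and -0.19 on the log2 scale. The large-subunit and small-subunit medians were -0.29 and -0.25 when Rho0 replicate 1 was left out, and both were -0.14 when Rho0 replicate 4 was left out.

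The start regions of the largest called fall and the largest called rise of each subunit are given here, chosen by the size of the log2 fold change under TMM among genes with an entry in the promoter table. Each sequence holds the 250 bases before the annotated start from RefSeq (GRCh38.p14), 5′ to 3′ on the strand of the gene. Capitals mark matches on either strand to any of 4 short motifs. MRPL52 lies on the plus strand at chr14:22829637-22829886 and holds 2 matches to the YY1 motif. MRPL30 lies on the plus strand at chr2:99180934-99181183 and holds 1 match to the ETS motif and 1 to the NRF1 motif. MRPS18A lies on the minus strand at chr6:43687792-43688041 and holds 1 match to the ETS motif. MRPS25 lies on the minus strand at chr3:15065316-15065565 and holds none of the 4.
MRPL52: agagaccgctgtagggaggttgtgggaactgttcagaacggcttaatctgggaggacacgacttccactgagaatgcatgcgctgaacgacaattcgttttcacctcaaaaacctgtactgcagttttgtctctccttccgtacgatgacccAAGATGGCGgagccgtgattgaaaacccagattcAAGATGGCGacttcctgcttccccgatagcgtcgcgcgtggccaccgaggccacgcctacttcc
MRPL30: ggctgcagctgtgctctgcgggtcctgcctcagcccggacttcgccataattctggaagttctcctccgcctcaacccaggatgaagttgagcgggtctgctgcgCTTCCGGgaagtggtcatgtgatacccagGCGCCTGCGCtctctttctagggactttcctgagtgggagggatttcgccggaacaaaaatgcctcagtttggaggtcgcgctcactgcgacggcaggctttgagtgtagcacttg
MRPS18A: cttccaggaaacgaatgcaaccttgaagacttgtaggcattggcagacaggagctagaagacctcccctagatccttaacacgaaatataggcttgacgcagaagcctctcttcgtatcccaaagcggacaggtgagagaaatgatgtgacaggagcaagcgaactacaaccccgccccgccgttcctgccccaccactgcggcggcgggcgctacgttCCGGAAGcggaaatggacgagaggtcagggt
MRPS25: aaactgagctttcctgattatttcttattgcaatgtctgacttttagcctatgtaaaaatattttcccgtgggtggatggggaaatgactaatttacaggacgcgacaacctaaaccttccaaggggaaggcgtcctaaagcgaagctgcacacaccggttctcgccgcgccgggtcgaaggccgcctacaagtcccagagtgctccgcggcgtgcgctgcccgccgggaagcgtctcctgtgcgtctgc

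The motifs were the NRF1 core site, for a regulator of nuclear genes for mitochondrial proteins, CCGGAAG for the ETS family, which includes GABPA, AAGATGGCG for YY1, and the E-box CACGTG, bound by MYC and others. Of the 80 members, 71 had an entry in the promoter table, each of 300 bases with 250 before and 50 after the start. The ETS motif was found in 29 of these 71 promoters (40.8%), against 14.5% of 15150 protein-coding promoters and 18.6% of the 10707 whose gene was tested. The YY1 motif was found in 14 (19.7%), against 2.83% of all and 3.84% of tested protein-coding promoters. Both stood at similar shares in the large and the small subunit, at 40.5% and 41.4% for ETS and at 19.0% and 20.7% for YY1. NRF1 matches were in 14.3% of large-subunit and 6.90% of small-subunit promoters, and E-box matches in 11.9% and 3.45%, none of which was tested. NRF1 matches, at 11.3%, and E-box matches, at 8.45%, were near the shares of the tested promoters, 11.3% and 9.92%. Among members lower in Rho0, 10 of 29 promoters held the ETS motif, 4 the YY1 motif, 5 the NRF1 motif and 2 the E-box. Among members higher in Rho0, 2 of 8 held the ETS motif, 2 the YY1 motif, 1 the NRF1 motif and 1 the E-box. Among members that did not pass, 17 of 34 held the ETS motif, 8 the YY1 motif, 2 the NRF1 motif and 3 the E-box. A match only says that these letters stand in the window.

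Many mitochondrial ribosomal genes start next to another gene that is read in the opposite direction. The start was taken as the outer boundary of the gene in GENCODE 29. By that definition, 30 members formed 30 such pairs with starts within 1000 bases of each other, and 28 pairs had both genes tested. The RefSeq starts of MRPL11, MRPL36 and MRPL41 lie farther inside these genes. With them, the pairs of these members (PELI3, NDUFS6 and PNPLA7) would not meet the limit of 1000 bases. With TMM scaling the partners were lower in 12 of the 28, higher in 4 and not called in 12, beside 25.4% lower and 29% higher over all genes tested. Whether partners moved together more often than other genes was not tested. With TMM, both genes were lower in 7 pairs and both higher in 2, and in no pair were they called in opposite directions. With library size alone, MRPL52 and MRPL13 were the only members of these 7 pairs still called lower. MRPL52, on chromosome 14 at 22829879 to 22835037 (GRCh38), starts 59 bases from SLC7A7, which encodes a subunit of a cationic amino acid transporter. SLC7A7 had 6.35 CPM on average in Rho0 and 56.4 CPM in the parental line, a log2 fold change of -3.17 (SE 0.12, edgeR adjusted p = 1.14e-08). The member and the partner with the largest falls thus have neighbouring annotated starts, and part of the region is printed above. Which starts were used in these cells was not tested, because counts are per gene.

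The other pairs in which both genes fell were MRPL13 with MTBP (-0.66 for the partner), MRPL18 with the chaperonin subunit TCP1 (-0.34), MRPL43 with the mitochondrial DNA helicase TWNK (-0.23), MRPL51 with the condensin subunit NCAPD2 (-0.84), MRPL57 with the kinetochore gene SKA3 (-0.61) and MRPS12 with the mitochondrial seryl-tRNA synthetase SARS2 (-0.35). MRPL30 rose with MITD1 (0.94), whose start is 21 bases away, and MRPS27 rose with PTCD2 (1.03), a pentatricopeptide repeat protein of mitochondria. Pairs could also differ: PNPLA7 rose (1.65) beside MRPL41, which did not pass at -0.05 and is a pair by the GENCODE boundary only. The library kit marks strand, but whether the counting used strand is not stated in the labels, so reads from overlapping first exons of a pair may not be told apart.

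**Figure D5:**
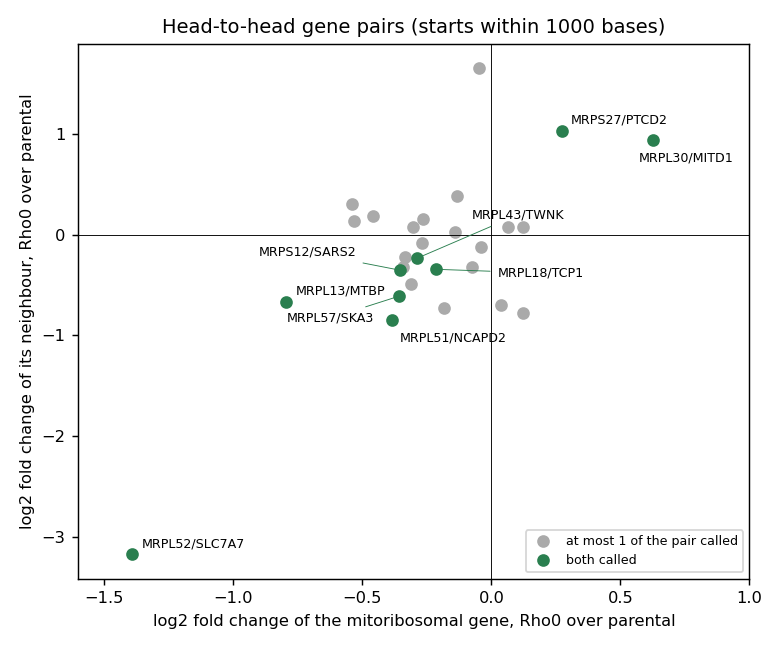
Log2 fold change of each mitochondrial ribosomal gene (x axis) and of the gene that starts within 1000 bases in the opposite direction (y axis), both Rho0 over parental, for the 28 pairs with both genes tested. The 9 named pairs, in which both genes are called, lie in the lower left (7 pairs) or upper right (2 pairs), with MRPL52/SLC7A7 at -1.39 and -3.17. Library size alone moves all points up and to the right.

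Other genes of mitochondrial translation moved in several directions. Of 4 proteins that are part of the ribosome or bind it but carry other names, 3 were lower and none higher with TMM. Over all genes tested 25.4% were lower. OXA1L, the insertase that docks at the tunnel exit, had 193 ± 15.6 CPM in Rho0 and 299 ± 13.7 CPM in the parental line (log2 fold change -0.63, edgeR adjusted p = 4.92e-05). The small-subunit proteins CHCHD1 and AURKAIP1 had log2 fold changes of -0.50 and -0.48 and did not pass with library size alone. The large-subunit protein GADD45GIP1 did not pass with TMM (-0.04). With library size alone OXA1L was still lower and GADD45GIP1 was called higher, beside 10.1% lower and 56.5% higher over all genes.

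Of 30 assembly factors and enzymes that modify mitochondrial ribosomal RNA, 12 were lower and 6 higher with TMM (median log2 fold change -0.12), beside 25.4% lower and 29% higher over all genes. With library size alone 2 were lower and 16 higher (median 0.28), beside 10.1% lower and 56.5% higher over all genes. RCC1L, an assembly factor, fell to 28.2 ± 3.10 CPM in Rho0, against 45.4 ± 2.51 CPM in the parental line (log2 fold change -0.69, edgeR adjusted p = 8.53e-05). METTL15, a methyltransferase of the small ribosomal RNA, and NOA1, a GTPase of ribosome assembly, were higher, with log2 fold changes of 0.73 and 0.59. Of 16 translation factors, 6 were higher and 4 lower with TMM (median 0.14), and 11 were higher and 0 lower with library size alone (median 0.53), to be read beside the same shares. RMND1, an inner-membrane protein needed for mitochondrial translation, had 14.4 ± 1.23 CPM in Rho0 and 8.64 ± 0.461 CPM in the parental line (log2 fold change 0.73, edgeR adjusted p = 7.45e-05). The initiation factor MTIF3 (0.69) and the recycling factor GFM2 (0.66) also rose.

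Cytosolic ribosomal genes, set beside the mitochondrial ones, were also more often lower than higher with TMM, and more often higher than lower with library size alone, where 56.5% of all genes were called higher. In the cytosolic large subunit 17 of 47 genes were lower and 6 higher, the median log2 fold change being -0.21, and in the small subunit 18 of 32 were lower and 2 higher, with a median of -0.37, beside 25.4% lower and 29% higher over all genes. Scaled by library size alone, the large-subunit median was 0.18, with 1 lower and 20 higher, and the small-subunit median 0.017, with 4 lower and 8 higher. RPS2 (-0.75), RPSA (-0.70), RPL35 (-0.66) and RPL8 (-0.60) fell and RPL15 (0.56) rose, and of these 5 RPL8 alone did not pass with library size alone. These genes have many processed copies in the genome, so their levels are uncertain. No test compared them with the mitochondrial ribosomal genes, and the medians of all 4 ribosomal lists lay below that of all genes tested.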

How the data were processed

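Estimated counts per gene in 8 libraries were deposited by the authors; kallisto, limma, edgeR and GRCh38 appear in the submitters' processing notes, with no tool versions. RNA was poly(A)-enriched and the kit was strand-specific, per the labels' protocols. The authors also deposited a log2 table of 12885 genes; 11149 of 11402 genes with at least 20 counts in both tables equalled log2 of a scaled count plus 1 within a relative tolerance of 0.001. The annotation release is not stated in the labels.

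After rounding of the estimated counts, edgeR 4.0.16 under R 4.3.3 was run with filterByExpr at a minimum count of 10, TMM factors and a quasi-likelihood test between the lines, and p was adjusted by Benjamini-Hochberg over 15184 genes. SE was obtained from the log2 fold change and the F statistic. CPM is over TMM-scaled library sizes, so 1 count was worth 0.0225 to 0.0753 CPM. In simulated counts over 15033 genes with 50 changed at each fold, 31 were called at 1.5-fold, 43 at 2-fold 50 at 4-fold and 43 at 8-fold (all 43 that passed the filter), with 11 false among 178 calls. No 2 libraries of the same line agreed within sampling noise (lowest chi-square per degree of freedom 4.21). Symbols were found for 34284 of 38010 IDs; coordinates and coding transcript lengths are from GENCODE 29 and promoters from RefSeq. Alternatives were other scalings, filters and tests (DESeq2 1.42.0, limma 3.58.1), a length and GC correction, a fit with a replicate block and fits without each library in turn.

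The members, gene lists, motifs and tests were chosen with earlier results of these data known. Genes named are, in each subunit, the 6 called genes with the largest falls and the 4 with the largest rises, fixed genes of known role, the highest and lowest level per length, and up to 3 called genes of each other list with at least 5 CPM in the higher line. Head-to-head pairs, MRPL28, MRPL51 and GADD45GIP1 were named after their values were seen. The value of 1 gene that this rule names is not reported here. Figures were drawn with matplotlib 3.10.9 under Python 3.11.15.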

Additional observations from a re-analysis of the deposited data

Results flagged for a closer look

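In 114 groups of 4 libraries, the highest or lowest library was compared with the other 3. The measure was its gap to the nearest over the group's range (Dixon's test at the 95% level). In each line, the groups were each gene named, the large-subunit and small-subunit sums, their ratio and the share of counts from mitochondrial DNA. Chance alone passes about 1 group in 20, and 2 passed here. OXA1L had 319.3 CPM in the third parental replicate, against 290.5 to 294.0 CPM in the other 3 parental replicates, with a gap of 0.880 of the range. Transcripts of mitochondrial DNA made up 0.1488% of the second Rho0 replicate, against 0.002958% to 0.007562% of the other 3 Rho0 replicates, with a gap of 0.968 of the range.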

How the results depend on the processing

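Across 53 named genes, 867 of 952 values under an alternative kept their direction and their side of the threshold, 49 lost the call, 14 gained one and 22 turned sign. Scaling decided most. With library size alone, all genes gave 8572 higher and 1540 lower (median 0.44), members 33 and 3, large-subunit genes 19 and 3 (median 0.21) and small-subunit genes 14 and 0 (median 0.22). Scaled by summed mitochondrial ribosomal counts, the values were 6877 and 2114 (median 0.32), 23 and 13, 13 and 9 (median 0.073) and 10 and 4 (median 0.087). This second scaling holds the sum of the members level by construction, so its member values say nothing on their direction as a group. Log2 fold changes that turned sign with library size alone were those of MRPL10 (0.13), MRPL3 (0.36), MRPL49 (0.049), MRPL50 (0.26), MRPL57 (0.033), MRPS12 (0.031), MRPS18B (0.25), MRPS22 (0.26), MRPS34 (0.12) and PTCD3 (0.35), and with the second scaling MRPL3 (0.24), MRPL50 (0.15), MRPS18B (0.11), MRPS22 (0.14) and PTCD3 (0.23). The median of all genes was 0.017 with DESeq2 size factors, 0.015 with the DESeq2 test, 0.092 without a filter and 0.0061 with the length and GC correction, which left 3 large-subunit genes higher and turned MRPL1 (-0.13), MRPS18C (-0.036) and MRPS30 (-0.14). The cause was not tested.

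Leaving out each library gave 8 to 10 members higher and 27 to 41 lower, medians of -0.29 to -0.14 (large), -0.25 to -0.14 (small) and 0.014 to 0.0574 (all genes), and a log2 ratio of large to small sums of -0.20 to -0.15. MRPL45 turned to -0.018 without Rho0 replicate 1 and -0.0102 without parental replicate 3, MRPS18C to -0.0040 without Rho0 replicate 3 and MRPL1 to -0.053 without Rho0 replicate 4. MRPS12 lost its call without Rho0 replicates 2 or 3 or parental replicates 2 or 3, and MRPL12 without Rho0 replicate 3. Same-numbered libraries did not pair (correlations of -0.135, 0.0366, 0.00185 and 0.155). A replicate block kept 39 of the 44 member calls and added 1, with 4215 higher and 3802 lower genes in all. The deposited log2 table, which holds 78 members, kept all 44 calls in limma.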
